A study of Mus musculus with 4 samples.

Results

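Methylation was compared between Tet/Tet embryonic stem cells (ESCs) and the neurons derived from them, which are 2 of the 4 libraries of the series, at the 2097808 CpG sites that both tables listed. Levels come from reduced representation bisulfite sequencing (RRBS), and the other 2 libraries are the same cell types of R1, the wild-type parent line. The line compared here has the genotype Dnmt1 Tet/Tet and was made from R1 by knocking tet-off constructs into Dnmt1, and the study's methods describe it as overexpressing the enzyme as ESCs and as neurons. Tet/Tet ESCs were grown with LIF, 1 µg/ml of puromycin and 150 µg/ml of neomycin. Neurons were obtained from embryoid bodies formed without LIF over 2 days and then kept for 10 to 15 days in a neural medium. Both Tet/Tet libraries carry the same alleles, and each stands for 1 line and 1 library. With no replicate on either side there was no spread to set a difference against, so no test was made, and "lost" or "gained" below means only a difference of at least 10 percentage points between the 2 libraries. The ESC library and the neuron library belong to separate sequencing projects and, per the labels, to different ways of extracting DNA, so that cell type, project and extraction cannot be told apart. The study's methods, in contrast, describe the same extraction for ESCs and neurons, with SDS, proteinase K and phenol-chloroform. No table gives read totals, so the depth of a site is unknown. The cell types could not be checked against expressed markers, since RRBS measures no RNA.

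DNMT1 is the maintenance methyltransferase, which copies the methylation of the old strand onto the new one after replication, while DNMT3A and DNMT3B set new marks. In mammals most CpGs outside CpG islands are methylated, and islands at active or poised promoters are kept free of the mark. Mouse ESCs grown with serum and LIF carry variable intermediate levels over much of the genome, and differentiated cells usually carry high ones. Imprinted genes are an exception, since a mark set in one germline is kept on 1 parental allele through development.

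The mean level was 32.9% in ESCs (SD over sites 38.0) and 11.4% in neurons (SD over sites 18.5), a difference of -21.4 points. Over the 887209 sites inside MspI fragments, defined below, the difference was -11.8 points, from 20.6% to 8.84%. Of all shared sites 57.7% were lower in neurons, 23.3% were higher and 19.02% were equal. The change was clearest at high sites. Sites at 80% or more made up 18.4% of the shared sites in ESCs and 2.04% in neurons. Of the 386183 sites that ESCs listed at 80% or more, 61.3% were under 20% in neurons and 6.31% were still at 80% or more. Most of them, 333805, lay outside MspI fragments, where 55.8% were at 0% in neurons and the neuron mean was 18.3%. Among the 52378 inside, 17.6% were at 0%, 8.55% were at 80% or more and the neuron mean was 27.4%. Low sites stayed low. Of the 1144508 sites under 20% in ESCs, 91.5% were also under 20% in neurons, and 1.03% reached 80% or more. Neurons listed 71.5% of the ESC sites on chromosomes 1 to 19, X and Y, and ESCs listed 52.8% of the neuron sites. The first share also counts ESC sites where neurons were not analysed, on chromosomes 8 and 9 and parts of 7 and 10. It therefore understates the overlap on the stretches compared.

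**Figure D1:**
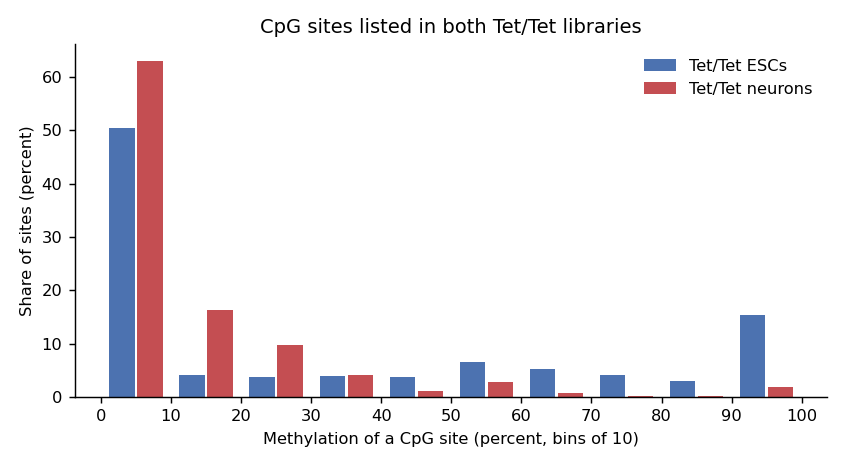
Share of the 2097808 shared CpG sites (y axis, percent) in bins of 10% methylation (x axis) in Tet/Tet ESCs (blue) and Tet/Tet neurons (red), 1 library each. The ESC bars have a second peak in the top bin, which in neurons is almost gone, and neurons have more sites than ESCs in each of the 4 bins below 40%.

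Most genes and 1 kb regions lost methylation, and fewer promoters did. A gene was measured by the mean of its sites, with at least 5 sites listed in both libraries. Of 21160 such genes 13250 lost at least 10 points (62.6%), 135 gained as much (0.638%) and 7775 stayed within 10 points. Among the genes within 10 points, 7182 were already under 20% in ESCs. Only 10 genes held methylation (0.0473%), which means 50% or more in ESCs and a neuron level within 10 points of it. Of the 4810 genes at 50% or more in ESCs, 4797 lost, and 73.3% of the 4810 were under 20% in neurons. The median gene went from 27.2% to 10.1%. With sites inside MspI fragments only, 36.8% of genes lost. Promoters, taken as 1 kb to either side of the annotated start, moved less. Of 18701 promoters 4500 lost (24.1%), 282 gained (1.51%) and 18 held methylation (0.0963%). Among protein-coding genes alone 10.2% of promoters lost, and with sites inside MspI fragments only 9.25%. The median promoter was at 3.70% in ESCs and at 3.54% in neurons. In 1 kb regions set along the chromosomes without regard to genes, 67877 of 111342 lost (61.0%), 3920 gained (3.52%) and 310 held methylation (0.278%). The losing share was 32.1% among regions with at least 10 sites and 38.5% with sites inside MspI fragments only. In windows of 1 Mb with at least 100 shared sites, all 2104 were lower in neurons.

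The sequences of regions that lost most show what such a change looks like at the level of single CpGs. They were chosen after their values were seen, as the 2 largest falls among 1 kb regions with at least 10 sites inside predicted MspI fragments of 40 to 220 bp, outside exons, mostly outside repeats and not on chromosomes 18 or Y. MspI cuts at CCGG, and these fragments are those that RRBS aims at. Sequences are from the forward strand of the GRCm38 (mm10) assembly of RefSeq, and capitals mark the CpGs whose values were listed in both Tet/Tet libraries and used.
Ntrk2 intron, chr13:59121171-59121323: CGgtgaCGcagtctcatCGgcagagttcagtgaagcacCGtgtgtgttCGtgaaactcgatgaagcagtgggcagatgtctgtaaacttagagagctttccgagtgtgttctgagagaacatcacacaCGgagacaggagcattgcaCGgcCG
Gm41177 intron, chr14:65178227-65178523: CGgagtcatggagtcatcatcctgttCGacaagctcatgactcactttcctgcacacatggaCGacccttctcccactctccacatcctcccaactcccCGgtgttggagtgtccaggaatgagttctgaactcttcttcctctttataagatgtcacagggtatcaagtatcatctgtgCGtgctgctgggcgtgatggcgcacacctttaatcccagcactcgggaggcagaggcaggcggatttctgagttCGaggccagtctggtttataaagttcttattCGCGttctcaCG
The first lies in an intron of Ntrk2, the receptor of the neurotrophin BDNF. Its 8 sites were at 86.4% to 96.97% in ESCs and at 11.2% to 29.0% in neurons, with means of 92.2% and 19.8%. The region was chosen for its fall, so the distance between these ranges follows from the choice. The second lies in Gm41177, outside its exons. Its 9 sites were at 75% to 100% in ESCs and at 0% to 18.6% in neurons, with means of 90.2% and 11.6%. In R1 neurons the means over the sites listed there were 96.6% and 93.8%. Neighbouring CpGs of a fragment are read from the same molecules and are not independent.

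The level in neurons depended little on the level in ESCs once a region was methylated at all. Regions of 1 kb under 10% in ESCs had a median of 3.18% in neurons. Regions at 10% to 20% had a median of 11.8%, those at 20% to 30% one of 13.9%, those at 50% to 60% one of 15.9%, and those at 80% to 90% one of 19.3%. Over the 72591 regions at 20% or more in ESCs, the neuron level rose by 0.0831 points for each point of the ESC level (Pearson r = 0.15 across regions, which are not independent replicates). The spread between regions narrowed, with an SD over regions of 29.0 points in ESCs and 11.0 points in neurons. Windows of 1 Mb ranged from 14.6% to 72.3% in ESCs and from 6.25% to 28.9% in neurons. Regions sorted by a high value in a library tend to fall when measured again, so the regions were also sorted by R1 ESCs, a library outside the comparison. This choice was made after seeing the data. Regions at 80% to 90% in R1 ESCs had a median of 81.8% in the ESCs and 22.2% in the neurons of the Tet/Tet line, and those at 20% to 30% had 27.1% and 15.6%. Sites inside MspI fragments gave neuron medians from 13.5% to 24.1% over the 9 bins above 10%.

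**Figure D2:**
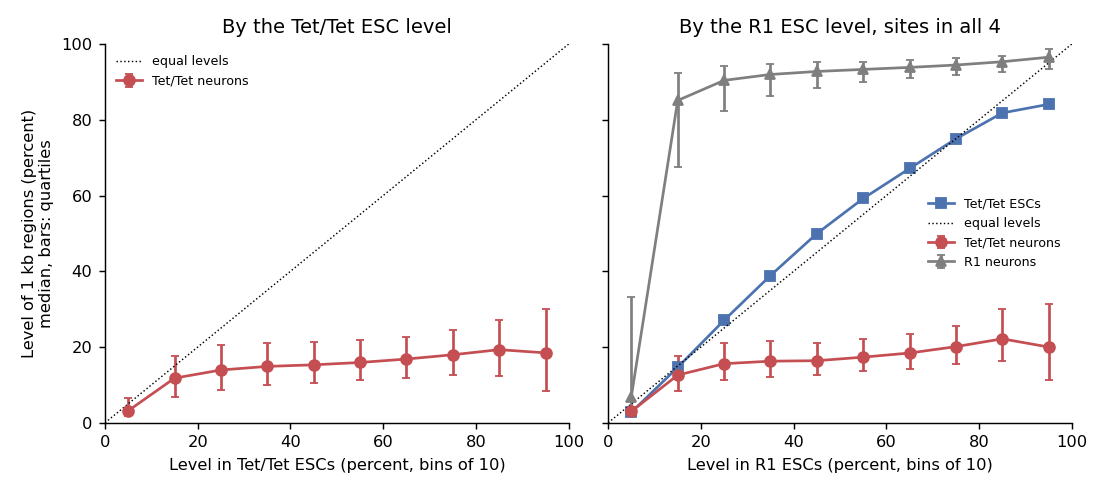
Median level of 1 kb regions in neurons (y axis, percent, bars from the lower to the upper quartile of regions) by their ESC level in bins of 10% (x axis), sorted by Tet/Tet ESCs (left) or by R1 ESCs (right, regions with 5 sites in all 4 tables). Red circles are Tet/Tet neurons, blue squares Tet/Tet ESCs, grey triangles R1 neurons, and the dotted line marks equal levels. Tet/Tet neurons stay between 11.8% and 22.2% in every bin above 10% in both panels.

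Retention differed with sequence. The share of the level kept is the neuron mean as a percent of the ESC mean. It was 34.8% over all shared sites. In CpG islands, dense stretches of CpGs that often hold promoters, the mean was 4.45% in ESCs and 3.99% in neurons, so 89.5% of a low level was kept. Island shores, within 2 kb of an island, kept 49.2% and sites beyond the shores 31.4%. Introns went from 45.4% to 14.8%, intergenic sites from 49.7% to 15.3%, and exons outside promoters from 33.0% to 13.5%. Sites in soft-masked repeats kept 34.98% and other sites 34.77%, but at sites that R1 ESCs listed at 80% or more the shares were 38.1% and 30.3%. Over protein-coding genes the mean was 3.15% in ESCs and 2.79% in neurons in the 100 bp before the start site, against 26.7% and 11.2% in a bin 4600 bp upstream.

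At sites that R1 ESCs listed at 80% or more, the bases next to the CpG went with the level kept. CpGs with C or G on both flanks had a mean of 72.6% in the ESCs and 26.5% in the neurons of the Tet/Tet line, keeping 36.4%. CpGs with A or T on both flanks had 66.7% and 16.7%, keeping 25.03%. Inside MspI fragments the shares were 46.6% and 28.3%. The order was therefore the same in both sets of sites. It also held at equal density, since with 3 or 4 other CpGs within 35 bp the shares were 43.0% with C or G and 28.4% with A or T. Density itself gave a less even picture. Sites with 0 other CpGs within 35 bp kept 30.2%, those with 5 to 7 kept 44.6% and those with 8 or more kept 66.3%. Inside MspI fragments the shares were 44.7%, 42.2% and 59.3%, so that only the densest class stood above the sparse one. Island sites chosen in the same way went from 68.6% to 43.0% and kept 62.6%. Depth per site may differ between these classes, and its part was not tested.

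**Figure D3:**
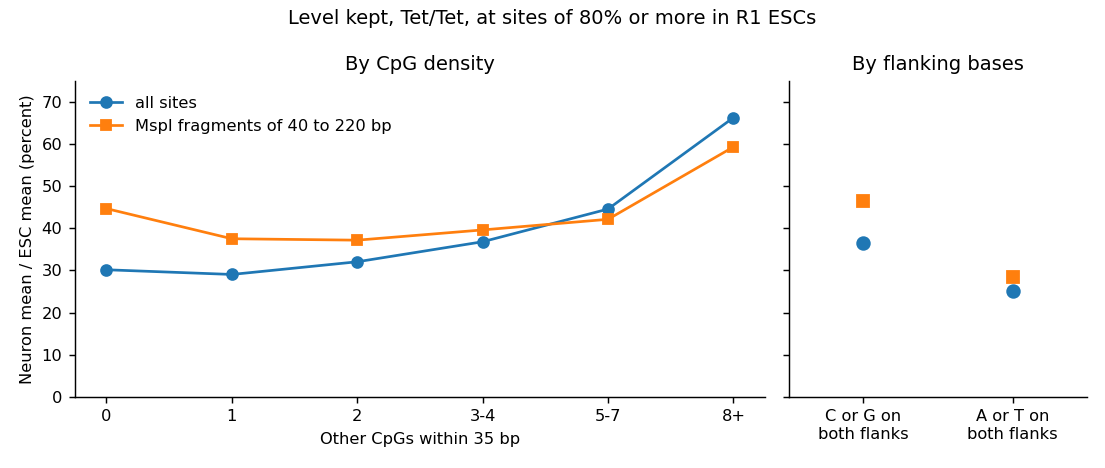
Share of the Tet/Tet ESC level kept in Tet/Tet neurons (y axis, neuron mean as a percent of the ESC mean) at sites of 80% or more in R1 ESCs, by the number of other CpGs within 35 bp (left) and by flanking bases (right). Circles are all sites and squares sites inside MspI fragments of 40 to 220 bp; flanks of A or T keep less in both, and sites with 8 or more neighbours keep 66.3% and 59.3%.

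Chromosomes were alike. Means ran from 25.3% to 36.6% in ESCs and from 10.5% to 12.7% in neurons on the autosomes and chromosome X. Chromosome X went from 35.9% to 12.7%. Chromosome Y, with 4827 sites, was higher in both libraries and went from 58.0% to 17.6%. Neurons were not analysed here on chromosomes 8 and 9, nor on chromosome 7 beyond position 55762981 or chromosome 10 before position 128096803.

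The protein-coding genes with the largest falls, among those with at least 20 sites are given first. Accsl, a gene named for its likeness to ACC synthase, went from 75.4% to 6.86% over 32 sites, of which 27 were lower and 0 higher (SD of the site differences 36.4 points). Gm4756 went from 82.7% to 14.4% and Vmn2r87, a vomeronasal receptor, from 86.0% to 20.4%, with all 22 of its sites lower. Xdh, the xanthine dehydrogenase of purine breakdown, went from 74.1% to 9.73% over 41 sites. Ankub1 went from 77.5% to 13.9%, and Myoz2, a protein of the muscle Z-disc, from 75.3% to 11.9%. Spert, a spermatid protein, went from 82.3% to 19.5%, and Dhrs2, a short-chain dehydrogenase, from 78.5% to 16.5%. All 8 of these genes were at 86.8% or more in R1 neurons. Over the sites listed in all 4 tables the differences were -51.4 points for Accsl, -49.5 for Xdh, -51.9 for Ankub1 and -46.3 for Myoz2. Those of the others were -60.3 points or below. Inside MspI fragments the 8 genes had from 2 sites (Ankub1) to 17 (Spert), with differences from -46.0 (Xdh) to -78.8 points (Ankub1). Among promoters with at least 10 sites, that of Krtap29-1, a keratin-associated protein, went from 79.4% to 5.38%, that of Hcar2, the niacin receptor, from 88.5% to 15.2%, that of Actl9, a testis actin-like protein, from 81.4% to 8.60%, and that of Krt6a, an epithelial keratin, from 92.0% to 20.3%. No site in these 4 promoters was higher in neurons.

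Rises of whole genes were smaller than the falls. The largest was that of Zfp865, a zinc finger gene on chromosome 7 at 5020376 to 5036768, which went from 5.02% to 22.8% over 226 sites, 192 of them higher (SD of the site differences 18.9 points). Its neighbours Fiz1, a zinc finger protein that binds the receptor FLT3, and Gm44973 went from 3.31% to 19.21% and from 5.37% to 17.5%. Gm44973 overlaps Zfp865 and shares sites with it, so these are not separate observations. Zfp775, another zinc finger gene, went from 7.83% to 24.7% with 51 of 75 sites higher, but its rise was 6.38 points, under the limit of 10, when 1 value was counted per 100 bp. Rpl10l, an intronless copy of a ribosomal protein gene used in testis, went from 5.45% to 17.5% with 23 of 31 sites higher. In R1 neurons Zfp865, Fiz1, Zfp775 and Rpl10l were at 73.6%, 76.0%, 79.1% and 94.0%. Txlng, Psmb6 (a catalytic proteasome subunit) and Knl1 (a kinetochore scaffold) were also among the 8, at 26.1%, 23.0% and 20.7% in neurons, but with 23 of 53, 12 of 25 and 22 of 41 sites higher they moved less evenly. Counting 1 value per 100 bp turned the sign for Txlng, to -4.25 points, and for Knl1, to -9.43 points. Psmb6 differed by 1.07 points over the sites listed in all 4 tables. Among promoters the largest rises were those of AK157302, from 0% to 80% over 10 sites, Lgals12, a galectin of fat cells, from 2.70% to 36.4%, Knl1, from 0.506% to 20.5%, and Mfsd2b, a sphingosine-1-phosphate exporter of blood cells, from 7.03% to 26.4%. The Mfsd2b rise was not seen over the sites listed in all 4 tables, where the difference was -0.350 points, and was 8.498 points with 1 value per 100 bp. Over the same sites the Lgals12 rise was 15.1 points, and the Knl1 promoter rose by only 0.930 points as a median over sites. The 10 sites of AK157302 lay in only 2 stretches of 100 bp, with 8 higher and an SD of the site differences of 42.2 points. The R1 pair shared 0 listed sites in that promoter, so its rise has no value beside it.

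**Figure D4:**
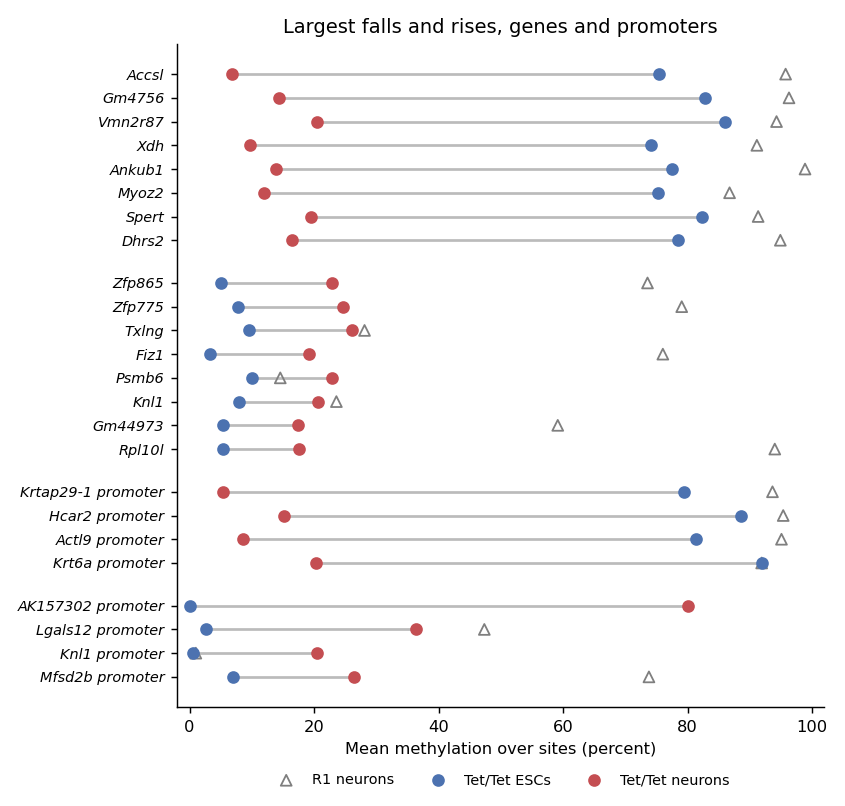
Mean methylation (x axis, percent) of the 8 protein-coding genes with the largest falls, the 8 with the largest rises, and the 4 promoters of each kind (y axis), in Tet/Tet ESCs (blue), Tet/Tet neurons (red) and R1 neurons (open triangles, where listed). Blue points are far apart between the falling and the rising genes, whereas red points of both gene groups lie between 6.86% and 26.1%.

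Regions that gained started low. The 3920 gaining regions had a median of 6.67% in ESCs and 24.7% in neurons, and only 1154 regions in all were at 50% or more in neurons. Sequences are given for the 2 largest gains chosen in the same way as the losing regions, and for the stretch upstream of Piwil2, a small RNA binding protein of the germline, in which all CpGs listed in both libraries are in capitals.
X-linked island, chrX:75966386-75966497: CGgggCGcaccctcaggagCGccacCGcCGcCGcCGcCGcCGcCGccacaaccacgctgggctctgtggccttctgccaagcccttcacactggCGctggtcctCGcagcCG
Tiam1 intron, chr16:90137196-90137324: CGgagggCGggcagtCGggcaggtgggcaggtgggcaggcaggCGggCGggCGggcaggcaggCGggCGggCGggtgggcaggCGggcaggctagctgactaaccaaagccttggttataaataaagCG
Piwil2 upstream, chr14:70429399-70429559: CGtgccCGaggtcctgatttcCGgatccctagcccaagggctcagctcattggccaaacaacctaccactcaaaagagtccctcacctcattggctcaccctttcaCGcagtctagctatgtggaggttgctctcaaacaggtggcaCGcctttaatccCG
The X-linked island lies 91204 bp from the nearest protein-coding gene, Pls3. Its 13 sites had a mean of 2.56% in ESCs and 70.5% in neurons, and single sites ranged from 0% to 33.3% and from 0% to 100%. Every value in these 2 libraries was 0%, 33.3%, 50%, 66.7% or 100%. Such values can come from very few reads per site, and the depth is unknown. The Tiam1 intron had means of 6.72% and 47.9% over 11 sites. Tiam1 encodes an activator of the GTPase RAC1. The 6 sites upstream of Piwil2 had means of 4.87% and 11.0%, with ranges of 0% to 9.70% and 0% to 22.0%. In R1 neurons the 3 means were 61.5%, 98.7% and 89.6%.

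Most gaining regions were methylated in R1 neurons. Among regions with 5 sites in all 4 tables and under 20% in Tet/Tet ESCs, 1773 gained in Tet/Tet neurons, and 96.9% of these gained in R1 as well, where the median R1 neuron level was 90%. Of the 30263 that stayed within 10 points, 46.2% gained in R1, with a median of 11.1% in R1 neurons. Read the other way, the 6674 low regions that reached 80% or more in R1 neurons went from a median of 11.3% to 14.4% in Tet/Tet, and 20.5% of them gained. The 17761 low regions that stayed under 20% in R1 neurons went from 2.27% to 2.34%, and 0.338% of them gained. The Tet/Tet and R1 pairs share no library, but each project holds a library of both.

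Regions that held methylation were few and held more repeat sequence than other methylated regions. Of 45426 regions at 50% or more in ESCs, 310 held it. In the held regions 46.9% of the CpGs were soft-masked, against 26.9% in all regions at 50% or more in ESCs, and 14.2% held a CpG island, against 2.83%. With at least 10 sites the shares of soft-masked CpGs were 67.2% in 31 held regions and 33.6% in 7225. Reads from repeats can be placed on a wrong copy, and the part of this was not tested. The held regions also rested on few sites, with a median of 6. One of those with the most sites, at chr14:92049001-92050000 and 963410 bp from Pcdh9, went from 84.3% to 81.7% over 14 sites and holds an island. Among the 10 genes that held, Gm12242 was at 71.9% and 63.0% and Gm8181 at 61.7% and 56.3%, each over 10 sites, and both are processed pseudogenes. No protein-coding gene with at least 20 sites held methylation. With sites inside MspI fragments and at least 10 of them, 2 regions held methylation, at chr14:38025001-38026000 and chr13:72677001-72678000. The held region with the most such sites outside exons and mostly outside repeats lies in an intron of Bmp7, a secreted growth factor of the BMP family.
Bmp7 intron, chr2:172917080-172917299: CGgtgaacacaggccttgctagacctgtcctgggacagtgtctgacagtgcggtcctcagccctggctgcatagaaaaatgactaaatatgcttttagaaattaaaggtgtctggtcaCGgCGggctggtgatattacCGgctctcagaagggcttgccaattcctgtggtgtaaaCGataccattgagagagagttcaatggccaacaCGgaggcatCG
Its 7 sites had a mean of 60.9% in ESCs and 53.7% in neurons, but its sites did not each hold. The first 4 CpGs in capitals that were above 0% in ESCs went from 100% to 40%, from 84% to 20.8%, from 42% to 14.8% and from 100% to 100%, and the last went from 0% to 100%. The mean thus stayed within 10 points although 3 sites fell, 1 rose and 3 were equal.

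Imprinted genes lost over their bodies about as often as other genes. Among genes whose mark comes from the oocyte, 9 of 16 measured genes lost and 0 gained, beside 62.6% and 0.638% of all genes, and 2 of 15 promoters lost, beside 24.1%. The median of these 15 promoters was 1.87% in ESCs and 5.87% in neurons. Most thus had too little methylation in ESCs to lose 10 points, and the count does not show that marks were kept. Peg13, a noncoding RNA gene in an intron of Trappc9, went from 82.5% to 22.9% at its promoter, with 44 of 45 sites lower. Meg3 is a noncoding RNA gene of the Dlk1 cluster, which carries a paternal germline mark. Its promoter went from 63.6% to 22.8%, with 32 of 34 sites lower. Only sites within 1 kb of the start were measured there, and the germline mark of the cluster was not located. R1 ESCs were lower than Tet/Tet ESCs at both promoters, with 39.2% at Peg13 (41 sites) and 19.7% at Meg3 (29 sites) over the sites that the R1 pair shared. Nespas, within the Gnas cluster, had 4.0% in ESCs and 11.7% in neurons over its body, with 97 of 130 sites higher, while its promoter went from 26.0% to 11.8% and was, with that of Peg13, one of the 2 that lost. The promoters of Peg3 and Usp29, which share their sites, were at 1.8% and 5.9%, and those of Peg10 and Sgce, which also share theirs, at 1.3% and 3.7%. The sequences upstream of Peg13 and Meg3 are given with that of Esrrb, a pluripotency factor, since each is a listed gene with a promoter loss and at least 5 shared sites before its start.
Peg13 upstream, chr15:72810514-72810722: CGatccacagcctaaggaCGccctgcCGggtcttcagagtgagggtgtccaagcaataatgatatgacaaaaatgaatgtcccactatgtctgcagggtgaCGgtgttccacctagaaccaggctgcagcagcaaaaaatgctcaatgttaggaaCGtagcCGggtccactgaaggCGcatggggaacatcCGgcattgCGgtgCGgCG
Meg3 upstream, chr12:109540644-109540943: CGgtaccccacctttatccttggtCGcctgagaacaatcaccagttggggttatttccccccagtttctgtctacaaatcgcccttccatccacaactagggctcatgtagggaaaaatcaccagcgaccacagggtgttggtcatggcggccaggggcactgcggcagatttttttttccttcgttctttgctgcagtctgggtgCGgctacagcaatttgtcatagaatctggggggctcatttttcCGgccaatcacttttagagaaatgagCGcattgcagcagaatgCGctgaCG
Esrrb upstream, chr12:86360678-86360963: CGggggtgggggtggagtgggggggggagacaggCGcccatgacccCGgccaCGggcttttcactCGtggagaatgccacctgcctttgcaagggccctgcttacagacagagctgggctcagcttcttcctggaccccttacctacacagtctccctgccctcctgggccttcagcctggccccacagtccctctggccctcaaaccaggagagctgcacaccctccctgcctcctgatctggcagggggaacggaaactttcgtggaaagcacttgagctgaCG
Over the sites in capitals the mean went from 88.6% to 30.8% upstream of Peg13, from 60.0% to 17.6% upstream of Meg3 and from 61.6% to 9.27% upstream of Esrrb. Single sites of Meg3 ranged from 44.7% to 73.3% in ESCs and from 6.45% to 28.0% in neurons. Those of Esrrb ranged from 48.8% to 69.2% and from 0% to 20%. Both were chosen for a promoter loss, so the distance between the ranges follows from the choice. In R1 neurons the 3 means were 87.3%, 26.6% and 95.5%.

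Pluripotency genes are silenced as ESCs differentiate, and several acquire promoter methylation. Of all promoters 1.51% gained and 24.1% lost, and of protein-coding ones 0.981% and 10.2%. Of the 15 measured promoters of pluripotency genes 2 gained, 2 lost and 11 stayed within 10 points. The gains were those of Nanog, a core pluripotency factor, from 2.7% to 14.4% over 5 sites, and Dppa4, a chromatin factor of early embryos, from 3.0% to 13.9% over 20 sites. At Nanog 4 of the 5 sites were higher, and the site differences had an SD of 21.5 points. Losses were those of Esrrb, from 39.3% to 8.3% over 13 sites, and Dppa3, which protects maternal marks in the zygote, from 57.6% to 26.8% over 17 sites. Pou5f1 was at 7.9% and 4.8%, and Sox2 at 1.8% and 3.0%. Tfcp2l1, a factor of naive pluripotency, lost 17.4 points over its body, with 29 of 87 sites lower and 34 higher, so its mean was carried by a minority of sites.

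Germline genes, whose island promoters are methylated in most somatic cells, had promoter medians of 26.7% in ESCs and 15.7% in neurons. Of 22 promoters 9 lost and 1 gained, beside 24.1% and 1.51% of all promoters and 10.2% and 0.981% of protein-coding ones. Tdrd9, a piRNA pathway helicase, went from 65.2% to 17.6% with all 10 sites lower, and Brdt, a testis bromodomain protein, from 52.9% to 18%. Promoters that were low in ESCs moved either way. That of Piwil2 went from 6.8% to 16.9% and that of Ddx4, the VASA helicase, from 6.6% to 15.8%, while that of Stag3, a meiotic cohesin subunit, was at 4.3% and 3.9% and that of Rnf17, a germ cell tudor protein, at 18.8% and 12.1%. Dazl and Mael, both of germ cells, were at 19.14% and 14.2% and at 18.2% and 21.8%. Over gene bodies 18 of 23 lost and 0 gained, beside 62.6% and 0.638% of all genes, with Tex101, a germ cell surface protein, at 70.4% and 19.9%.

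Most promoters of neuronal genes were low in both cell types, and their bodies lost about as often as those of other genes. Of all 18701 promoters, 13919 stayed within 10 points, 24.1% lost and 1.51% gained, and of protein-coding ones 10.2% lost. Of 19 promoters of neuronal structure and transmission genes 16 stayed within 10 points, 3 lost and 0 gained, with medians of 5.14% and 3.22%. Those that lost were Gria1, a subunit of AMPA glutamate receptors, from 40.3% to 2.8%, Stmn2, a regulator of axonal microtubules, from 20.3% to 3.8%, and Slc17a7, a vesicular glutamate transporter, from 16.4% to 5.8%. Over bodies 14 of 22 lost, beside 62.6% of all genes, with medians of 21.2% and 7.63%. Rbfox3, the gene of the neuronal marker NeuN, went from 42.0% to 10.5% over 1266 sites. Nefl, the light neurofilament chain, was at 1.7% and 4.8%. Promoters of neural progenitor factors were mostly low, with 17 of 18 within 10 points, and Dlx1, a forebrain homeobox factor, the exception at 17.7% and 3.65%. Of their bodies 1 of 18 lost, beside 62.6% of all genes, that of Pax3, from 23.3% to 8.45%. Of 13 glial gene bodies 10 lost, beside the same 62.6%, and the promoter of Mag, a myelin glycoprotein, went from 43.9% to 11.8%. Slc1a3, an astrocyte glutamate transporter, was at 2.1% and 6.8% at its promoter. Genes of other lineages had 13 of 15 promoters within 10 points. Gata4, an endoderm and heart factor, lost, from 47.5% to 18.4%, and Runx1, a blood factor, gained, from 23.3% to 55.7%, over only 5 sites whose differences had an SD of 55.7 points.

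Candidate genes of schizophrenia, the disorder that the study addresses, lost over their bodies in 18 of 21 cases, beside 62.6% of all genes, with medians of 36.9% and 10.7%. Of their 18 promoters 16 stayed within 10 points, as did 13919 of all 18701 promoters. Of protein-coding promoters 10.2% lost, and 2 of these 18 did. Cacna1c, a calcium channel subunit, went from 44.4% to 12.4% over 863 sites, Tcf4, a transcription factor, from 42.9% to 14.1%, Reln, a secreted guide of neuronal migration, from 47.4% to 14.2%, and Grm3, a metabotropic glutamate receptor, from 61.8% to 14.9%. Bdnf was at 5.5% in both over 196 sites, 85 of them lower and 65 higher. The promoter of Foxp2 was at 2.2% and 8.8%, and that of Htr2a, a serotonin receptor, went from 30.2% to 5.9% with 4 of 8 sites lower and 4 higher. Genes of the DNA methylation machinery had 11 of 11 promoters within 10 points, among them Dnmt3a at 2.7% and 2.1%, Dnmt3b at 1.5% and 1.6%, Uhrf1, the partner that guides DNMT1 to new strands, at 3.5% and 2.5%, and Tet2, which oxidises the mark, at 2.4% and 2.5%. Dnmt1 itself lies on chromosome 9 and was not analysed here in neurons.

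Gene families differed in their ESC level. Olfactory receptor genes, silent outside the nose and poor in CpGs, had the highest median, 57.6% in ESCs and 13.2% in neurons, and 60 of 62 lost, against 62.6% of all genes. Only 62 of 1107 had enough sites. Hox genes, which pattern the body axis and lie in large unmethylated domains, were at 3.603% and 2.92%. Of these 38 of 39 stayed within 10 points, beside 7775 of all 21160 genes. Hoxb13 was the exception, at 17.9% and 2.66%. Clustered protocadherins, cell surface proteins that give neurons individual identities, lost in 20 of 53 bodies, beside 62.6% of all genes. The Pcdha bodies end at nearly the same position, as do the Pcdhg bodies. Many of the 53 thus share sites and are not separate observations. Of 40 promoters 5 lost, beside 24.1% of all promoters, and 4 gained, beside 1.51%. Pcdhb12 was at 38.2% and 5.70% and Pcdhb14 at 5.36% and 21.7%, each over 6 sites. Zfp zinc finger genes lost in 155 of 302 bodies and in 14 of 265 promoters, beside 62.6% of genes and 24.1% of promoters. Of protein-coding promoters alone 10.2% lost and 0.981% gained. Of 41 histone genes 39 stayed within 10 points, beside the same 7775 of 21160. Hist1h2be was at 23.2% and 5.80% and the testis variant Hist1h2ba at 7.29% and 17.5%. Near-identical copies in these families can share reads, so single members are uncertain. Housekeeping promoters stayed within 10 points in 14 of 15 cases, beside 13919 of all 18701 promoters. The exception, Ywhaz, was at 40.1% and 16.7% with 7 of 11 sites lower.

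**Figure D5:**
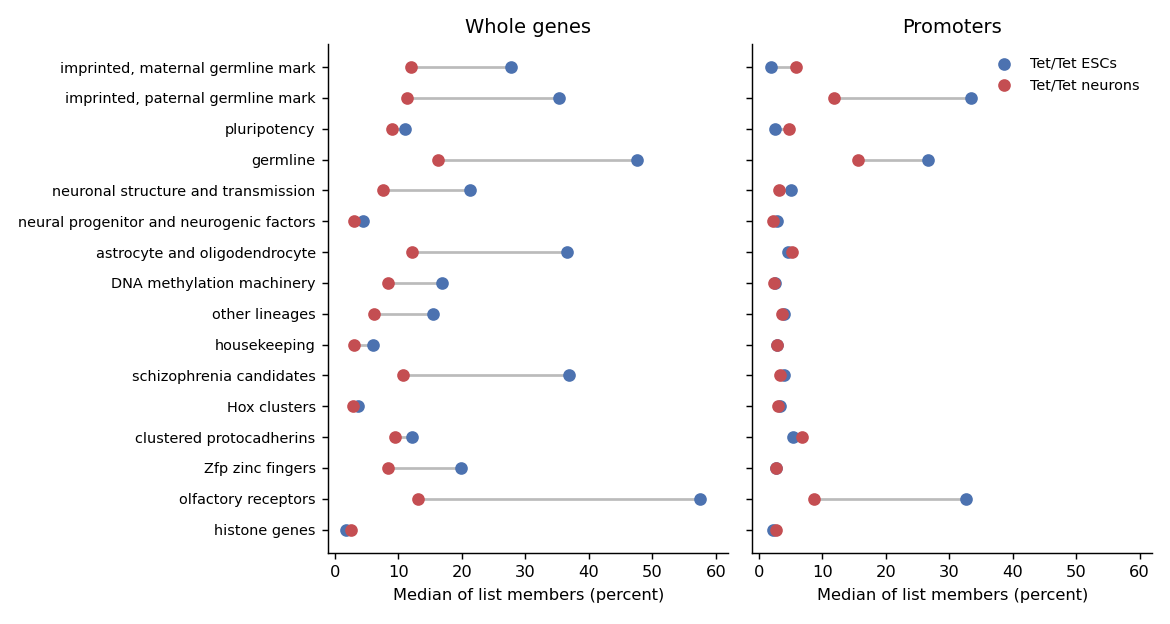
Median methylation (x axis, percent) of the measured members of 16 gene lists (y axis), over whole genes (left) and promoters (right), in Tet/Tet ESCs (blue) and Tet/Tet neurons (red). Gene bodies with high ESC medians, such as olfactory receptors (57.6%) and germline genes (47.5%), end at 13.2% and 16.3%, and most promoter medians are under 10% in both.

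Promoters with and without a CpG island behaved differently over all genes. Of 11853 promoters with an island 277 lost (2.34%) and 99 gained (0.835%), with medians of 2.53% and 2.57%. Of 6848 promoters without one 4223 lost (61.7%) and 183 gained (2.67%), with medians of 36.5% and 12.1%.

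The R1 pair moved the other way at the same sites. Over the 80233 regions with 5 sites in all 4 tables, the mean went from 34.7% to 13.8% in Tet/Tet and from 32.8% to 67.6% in R1. Of these regions 54.5% lost and 2.56% gained in Tet/Tet, whereas 0.256% lost and 76.9% gained in R1. Regions that lost in Tet/Tet had medians of 58.0% in Tet/Tet ESCs, 53.3% in R1 ESCs, 16.8% in Tet/Tet neurons and 93.2% in R1 neurons. The ESC libraries of the lines were thus close in these regions and the neuron libraries far apart. With 1 library each, the difference between lines was not tested.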

How the data were processed

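RRBS was made of 4 samples, 1 library each, from 200 ng of DNA cut with 30 units of MspI. Per the submitters' processing notes, reads were trimmed with Trim Galore 0.6.4, checked with FastQC 0.11.8, mapped to mm10 with Bismark 0.19.0 and called with MethylDackel 0.3.0. The authors deposited other values than counts, namely for every CpG the percent of its reads that kept a cytosine, from 0 to 100, with no read totals. Values are not normalized between libraries.

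Here sites listed in both Tet/Tet tables on chromosomes 1 to 19, X and Y were averaged with equal weight over genes (GENCODE M21), promoters (1 kb to either side of the start) and 1 kb regions with at least 5 sites. Sites with few reads count as much as deep ones, which spreads region means. CpG islands (above 200 bp, at least 50% GC, observed over expected CpG ratio above 0.6) and MspI fragments were located on GRCm38. Computations used Python 3.11.15, numpy 2.4.6, pandas 2.3.3 and numba 0.67.0, with matplotlib 3.10.9 for figures, and were tested on simulated data. No p-value was computed.

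Named genes are protein-coding genes with at least 20 sites (8 largest falls, 8 largest rises, and up to 6 that held methylation, of which there were 0), promoters with at least 10 sites (4 and 4), and in each of 16 gene lists the lowest and the highest difference; further list members were picked as examples after their values were seen. The comparison and lists were chosen with earlier results of these data known. Other site sets, site minimums, difference sizes, windows and medians were tried.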

Additional observations from a re-analysis of the deposited data

Results flagged for a closer look

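The change from ESCs to neurons had opposite signs in the 2 lines. Over the 1545651 sites listed in all 4 tables, the Tet/Tet mean went from 28.1% to 10.9% and the R1 mean from 26.8% to 53.3%, so that the Tet/Tet change lay 43.8 points below the R1 change (-43.8 points). At the level of genes with at least 5 such sites, 9975 of 19458 (51.3%) were at least 10 points lower in Tet/Tet neurons than in Tet/Tet ESCs and at least 10 points higher in R1 neurons than in R1 ESCs. Each condition is 1 library, and the difference between lines was not tested.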

How the results depend on the processing

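The site mean difference stayed negative under every alternative tried. It was -17.2 points over sites listed in all 4 tables, -11.8 inside MspI fragments, -21.3 on autosomes only, -21.6 without the chromosomes listed in part and -24.7 as a mean of 1 kb region means. Regions at 50% or more in ESCs kept 27.2% of their level, and the share was 30.7% and 24.1% with a limit of 25% and 80%, 29.4% inside MspI fragments, 29.4% over sites of all 4 tables and 30.1% for regions chosen by R1 ESCs, a choice made after seeing the data. Genes losing numbered 8677 with at least 20 sites, 5938 inside MspI fragments, 8674 with medians over sites and 8784 when protein-coding, and genes gaining 31 with 20 sites, 36 at 20 points, 85 with 1 value per 100 bp, 225 with medians and 48 when protein-coding. Promoters losing numbered 2753 within 500 bp of the start, 1685 with 10 sites, 1233 when protein-coding and 1270 inside MspI fragments, and promoters gaining 146 with 10 sites, 74 at 20 points, 118 when protein-coding and 134 inside MspI fragments. Regions of 1 kb losing numbered 12376 with 10 sites and 16292 inside MspI fragments, and regions gaining 1174 with 10 sites, 1137 at 20 points, 1233 inside MspI fragments and 461 with both restrictions. Regions holding methylation numbered 31 with 10 sites, 1020 at 20 points, 50 inside MspI fragments and 2 with both. The alternatives with both restrictions were added after seeing the data. Of 90 alternative values of the named genes and promoters 56 lay within 10 points of the value reported, 31 kept their direction and lay further off, and 3 turned sign, which were Txlng at -4.25 and Knl1 at -9.43 points with 1 value per 100 bp, and the Mfsd2b promoter at -0.350 points over sites of all 4 tables. The cause of these changes was not tested. Depth per site is unknown and there are no replicates, so neither counting error nor spread between cultures could be given. No paired analysis was possible because each condition has 1 library.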

Other observations

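Sites on the mitochondrial genome, which entered no comparison, had means of 7.37% in Tet/Tet ESCs (111 sites), 6.27% in Tet/Tet neurons (76 sites), 3.19% in R1 ESCs (90 sites) and 15.9% in R1 neurons (69 sites).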
